A study of Mus musculus with 8 samples.

Results

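The keratins are the intermediate filament proteins of epithelial cells. An acidic type I keratin and a basic type II keratin pair as heterodimers, and the pairs assemble into the filaments that tie epithelial cells to desmosomes and give them mechanical strength. In the mammary gland, Krt8 and Krt18, with Krt7 and Krt19, mark luminal cells, and Krt5, Krt14 and Krt17 mark basal cells. Hair keratins build the hard shaft of hair and nail, and inner root sheath keratins serve the sheath around it. The genes lie side by side in a type I cluster and a type II cluster, and *Krt18* is the type I gene that sits at the end of the type II cluster, next to its partner *Krt8*.

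Accessible chromatin regions (FAIRE peaks) were examined at all 53 protein-coding mouse genes named *Krt* and a number in the gene annotation of mm10, of 21951 protein-coding genes in all. The genes of keratin-associated proteins (*Krtap*) were not members. A locus was the gene span with 10 kb on each side. On chromosome 11 lay 27 of the genes (the type I cluster) and on chromosome 15 the other 26 (the type II cluster, with *Krt18*). The class lists held 7 epithelial keratins, 15 hair keratins, 7 inner root sheath keratins and 24 others, and *Krt74* and *Krt85* had no protein-coding entry in that annotation.

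FAIRE-seq enriches DNA that escapes crosslinking to protein, so it marks open chromatin. The libraries came from EpH4, a mouse mammary gland epithelial cell line, and from EpRas, its derivative transformed by active H-Ras. Each line was left untreated or kept for 8 days with 1 ng/ml TGF-β3 (called TGF-β), with 2 replicates in each of the 4 groups, 8 libraries in all. EpRas is 1 line, and its medium held less fetal bovine serum, so Ras, line history and serum cannot be told apart. The peak lists held 10821 to 27337 peaks, the longest in EpRas TGF-β replicate 1, and carried no read counts, so the depth was unknown and a site without a call was either closed or below the limit of the peak caller. Of the 7 epithelial markers, 6 had a peak, with *Epcam* at 0 in every library. Of 5 blood cell markers 2 had a peak, of 4 endothelial markers 3 and of 4 fibroblast markers 3, while 65.5% of all protein-coding genes had one.

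Fewer keratin genes than genes in general had a peak in their locus. A peak was called in the locus of 20 of 53 keratin genes in at least 1 library (37.7%), beside 65.5% of all protein-coding genes, whose spans are longer (median 17.4 kb, beside 6.59 kb for keratin genes). In at least 4 libraries a peak was called for 10 keratin genes (18.9%, beside 47.5% of all genes), and in all 8 libraries for 6 (11.3%, beside 22.9%). Neighbouring loci overlap, so 1 peak can count for more than 1 gene. The genes without any peak numbered 33 and included *Krt5*, the basal partner of *Krt14*, *Krt19*, and *Krt6a*, *Krt6b* and *Krt1*. Only 58.4% of the 36-base windows in *Krt6a* and 53.4% of those in *Krt6b* occur once in the genome, so a missing call there is less firm.

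The sequences of 7 regions that carry these results are shown, 5′ to 3′, from GRCm38.p6, the assembly of mm10. They are the regions called in all 8 libraries at the starts of *Krt14* and *Krt16*, upstream of *Krt80*, between *Krt88* and *Krt81* and at the far edge of the long stretch without peaks, and the regions next to the starts of *Krt8* and *Krt18*. Capitals mark matches on either strand to AP1 (TGAGTCA or TGACTCA), ETS (CCGGAAG), RUNX (TGTGGTT), AP-2 (GCC and GGC with 3 bases between) and TEAD (ACATTCC). Stretches were cut to at most 300 bases and hold no annotated untranslated region.
*Krt14* start, chr11:100207559-100207858, minus strand: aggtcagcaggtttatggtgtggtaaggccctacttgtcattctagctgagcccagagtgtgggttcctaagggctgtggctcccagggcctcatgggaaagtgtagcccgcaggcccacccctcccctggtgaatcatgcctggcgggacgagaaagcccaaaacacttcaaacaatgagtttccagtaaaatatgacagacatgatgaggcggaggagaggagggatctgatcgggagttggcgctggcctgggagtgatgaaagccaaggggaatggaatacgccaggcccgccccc
*Krt16* start, chr11:100249076-100249375, minus strand: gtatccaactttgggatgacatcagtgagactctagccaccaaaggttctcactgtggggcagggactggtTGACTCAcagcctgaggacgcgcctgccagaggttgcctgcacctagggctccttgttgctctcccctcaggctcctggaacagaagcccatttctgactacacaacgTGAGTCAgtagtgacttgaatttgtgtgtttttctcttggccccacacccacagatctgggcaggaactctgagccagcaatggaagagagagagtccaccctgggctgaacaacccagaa
*Krt80* upstream, chr15:101388244-101388543, plus strand: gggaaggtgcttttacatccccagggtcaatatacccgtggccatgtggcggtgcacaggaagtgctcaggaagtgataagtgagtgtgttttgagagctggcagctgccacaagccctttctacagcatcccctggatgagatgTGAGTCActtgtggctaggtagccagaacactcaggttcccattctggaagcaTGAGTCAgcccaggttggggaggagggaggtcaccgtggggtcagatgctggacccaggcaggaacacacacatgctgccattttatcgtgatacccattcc
*Krt88* to *Krt81*, chr15:101455407-101455706, plus strand: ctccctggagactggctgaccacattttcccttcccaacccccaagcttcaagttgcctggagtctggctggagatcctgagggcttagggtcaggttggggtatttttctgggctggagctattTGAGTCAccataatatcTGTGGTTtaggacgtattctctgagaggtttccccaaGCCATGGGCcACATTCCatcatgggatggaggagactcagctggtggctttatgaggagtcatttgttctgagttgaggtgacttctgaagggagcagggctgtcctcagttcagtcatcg
Edge of the stretch without peaks, chr15:101973768-101974036, plus strand: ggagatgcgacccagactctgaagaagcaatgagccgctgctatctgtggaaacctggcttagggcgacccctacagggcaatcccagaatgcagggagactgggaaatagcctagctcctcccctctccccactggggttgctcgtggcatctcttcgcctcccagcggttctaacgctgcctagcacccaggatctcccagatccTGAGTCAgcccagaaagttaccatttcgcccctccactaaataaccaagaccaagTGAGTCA
*Krt8* upstream, chr15:102005369-102005648, minus strand: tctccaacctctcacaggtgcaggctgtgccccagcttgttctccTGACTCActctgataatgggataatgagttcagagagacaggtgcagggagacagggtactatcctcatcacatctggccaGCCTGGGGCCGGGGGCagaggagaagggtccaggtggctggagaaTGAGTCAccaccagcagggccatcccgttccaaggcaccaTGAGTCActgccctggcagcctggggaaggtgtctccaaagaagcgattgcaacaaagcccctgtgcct
*Krt18* start, chr15:102028028-102028179, plus strand: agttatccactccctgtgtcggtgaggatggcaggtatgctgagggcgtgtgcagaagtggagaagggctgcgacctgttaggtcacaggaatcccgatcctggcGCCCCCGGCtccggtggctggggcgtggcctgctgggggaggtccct
The *Krt14* stretch held none of the 5 motifs, the *Krt16* stretch held 2 AP1 matches, and the *Krt8* stretch held 3 AP1 and 2 overlapping AP-2 matches. The stretch between *Krt88* and *Krt81* held 1 match each to AP1, RUNX, AP-2 and TEAD.

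Motifs were counted in 300 bases around the midpoint of each merged region, where peaks of any library that overlapped by at least 1 bp formed 1 region. Of 33 regions in keratin loci, 11 lay within 2 kb of a transcription start (promoter regions). An AP1 match was found in 6 of these 11 (54.5%), beside 14.3% of all 11806 promoter regions, and an AP-2 match in 5 of 11 (45.5%), beside 21.0%. Among the 6 with AP1, chr11:100113547-100113908, chr11:100208388-100208587 and chr15:101473082-101473298 were each called in only 1 library. Of the 22 distal regions in keratin loci, 8 held AP1 (36.4%), beside 44.2% of all 25424 distal regions, and 4 held RUNX (18.2%), beside 14.1%. A match describes the letters and not a bound factor.

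The basal keratin *Krt14* (chr11:100203162-100207548) was the epithelial keratin with a peak near its start in every library. The region 0.125 kb upstream of its start, chr11:100207481-100207864, was called in all 8 libraries. The *Krt14* locus held 1 and 3 peaks in untreated EpH4, 2 and 2 in EpH4 with TGF-β, 2 and 1 in untreated EpRas, and 2 and 2 in EpRas with TGF-β. The lines overlapped, with a mean of 1.75 in EpRas and 2.00 in EpH4. The second site shared by most libraries, chr11:100198741-100199003 with 2 AP1 matches, lay between *Krt14* and *Krt9*, a keratin of palm and sole skin, and was called in 6 libraries, missing from EpH4 untreated replicate 1 and EpRas untreated replicate 2.

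*Krt16*, a keratin of stressed and wounded epidermis, had an open start in all 8 libraries as well, at chr11:100248951-100249501, 0.324 kb upstream. Its locus held 2 and 1 peaks in untreated EpH4, 2 and 1 in EpH4 with TGF-β and 1 in each EpRas library. The same counts were found for *Krt17* (chr11:100256217-100261029), since both loci share these peaks. No peak lay within 2 kb of the start of *Krt17* itself in any library. The second peak, chr11:100254407-100254683, was called in replicate 1 of both EpH4 groups and in none of the 4 EpRas libraries. Of the 36-base windows in *Krt16*, 61.1% occur once in the genome, beside 96.4% in *Krt17* and 90.6% in *Krt14*, and how reads with several matches were placed is not given in the sources used here.

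The luminal pair *Krt8* and *Krt18* was open in some libraries of each line. The *Krt8* locus (chr15:101996698-102004482) held 1 and 2 peaks in untreated EpH4, 2 and 3 in EpH4 with TGF-β, 2 and 0 in untreated EpRas, and 3 and 0 in EpRas with TGF-β. Every EpH4 library had a *Krt8* peak, and both EpRas replicates 2 had none, while both EpRas replicates 1 reached the level of EpH4. The *Krt18* locus (chr15:102028180-102032027) held 2 and 0 peaks in untreated EpH4, 1 and 1 in EpH4 with TGF-β, 0 and 0 in untreated EpRas, and 1 and 0 in EpRas with TGF-β. For *Krt18* the only EpRas library with a peak was the one with the longest list.

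At the start of *Krt8*, chr15:102004288-102004516, a peak was called in 3 EpH4 libraries and no EpRas library. A second region 1.03 kb upstream of that start, chr15:102005369-102005648, was called in 4 libraries, 2 of each line. Between the 2 genes, chr15:102016129-102016428 was called in 7 libraries, all but EpH4 TGF-β replicate 2, with 2 AP1 matches. This region lies outside both loci as defined, so it is not in the counts of *Krt8* or *Krt18*. The region at the start of *Krt18*, chr15:102028028-102028278, was called in EpH4 untreated replicate 1, EpH4 TGF-β replicate 2 and EpRas TGF-β replicate 1. The site between the genes was thus called more often than either start.

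The other luminal keratins had fewer calls. *Krt7* (chr15:101411043-101430313) held 1 peak in EpH4 TGF-β replicate 1, EpRas untreated replicate 1 and EpRas TGF-β replicate 1, and 0 in the other 5 libraries. Those 3 libraries had the longest lists, of 17210 to 27337 peaks. The peaks lay in an intron 1.29 kb downstream of its start, and 26 bp from a start of the antisense gene *Gm671*. *Krt19* (chr11:100140810-100148665) held 0 peaks in every library, with 96.8% of its windows found once in the genome.

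**Figure D1:**
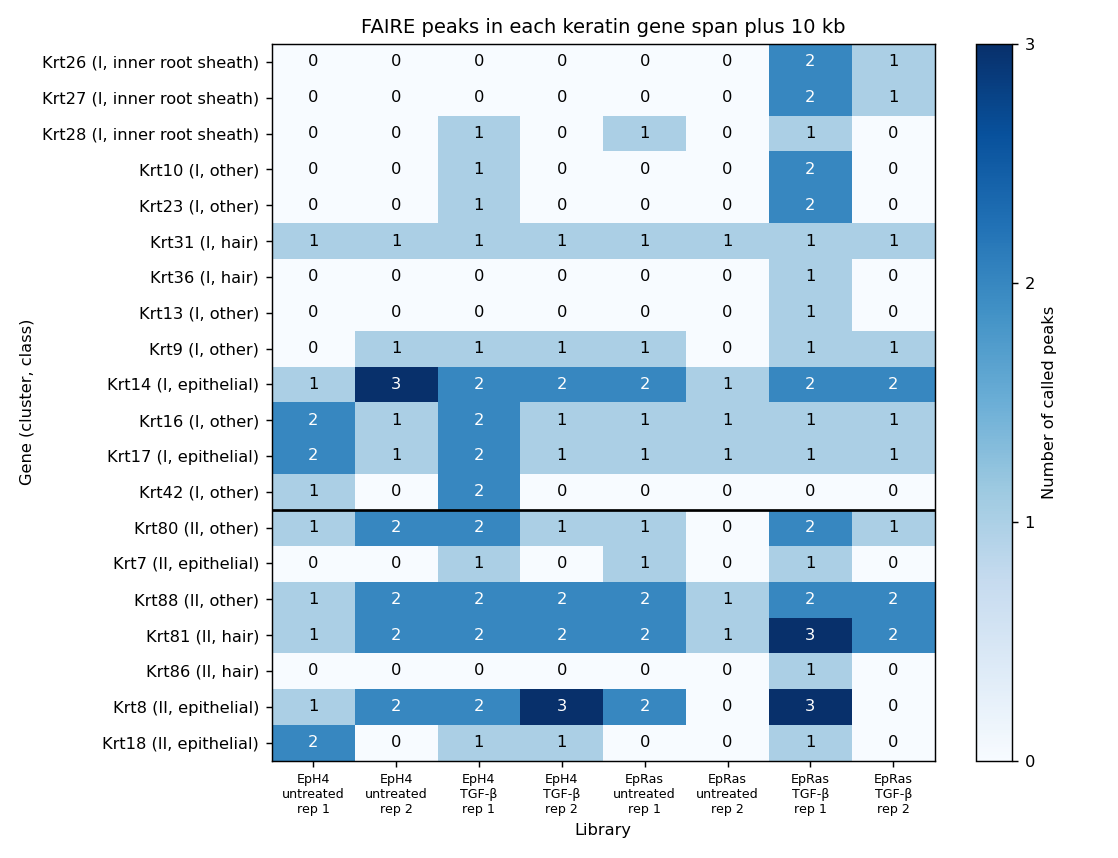
Number of FAIRE peaks (cells, 0 to 3) in the locus of each of the 20 keratin genes with any peak (vertical axis, with cluster and class) in the 8 libraries (horizontal axis). The black line divides type I from type II cluster genes, and *Krt14*, *Krt16*, *Krt17*, *Krt31*, *Krt88* and *Krt81* have a peak in every library.

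Hair keratins had few calls, and those were placed away from starts. In the 15 hair keratin loci, 4 genes had a peak in any library. *Krt31* held 1 peak in each of the 8 libraries, in 7 of them at chr11:100055692-100056064, an intron of the predicted gene *Gm11571*, 5.33 kb upstream of *Krt31*. *Krt81* held 1 and 2 peaks in untreated EpH4, 2 and 2 in EpH4 with TGF-β, 2 and 1 in untreated EpRas, and 3 and 2 in EpRas with TGF-β. *Krt36* and *Krt86* held 1 peak each, both in EpRas TGF-β replicate 1, and the *Krt86* peak was the only call within 2 kb of a hair keratin start. *Krt88* shared the peaks of *Krt81* and held 1, 2, 2, 2, 2, 1, 2 and 2 peaks in the same order of libraries. The lines and treatments overlapped for each of these genes. Among hair keratins, the share of 36-base windows found once in the genome ran from 66.7% in *Krt81* to 99.5% in *Krt36*. It was 76.7% in *Krt86* and 78.5% in *Krt87*, so a missing call in such genes is less firm.

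Counted by library, the share of epithelial keratins with a peak was 28.6% to 71.4%, with a median of 57.1%, and that of hair keratins 13.3% to 26.7%, with a median of 13.3%. The epithelial share exceeded the hair share by 36.8 ± 15.3 percentage points (SD over 8 libraries). Of all protein-coding genes, 35.1% to 58.6% had a peak. Restricted to peaks above the median score of all peaks, the gap was 17.5 percentage points, and with gene spans alone 21.4. With all peaks and the 10 kb flank, a larger share of epithelial than of hair keratins had a peak in each library. Among peaks above the median score, EpRas untreated replicate 2 had 0 peaks in keratin loci.

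**Figure D2:**
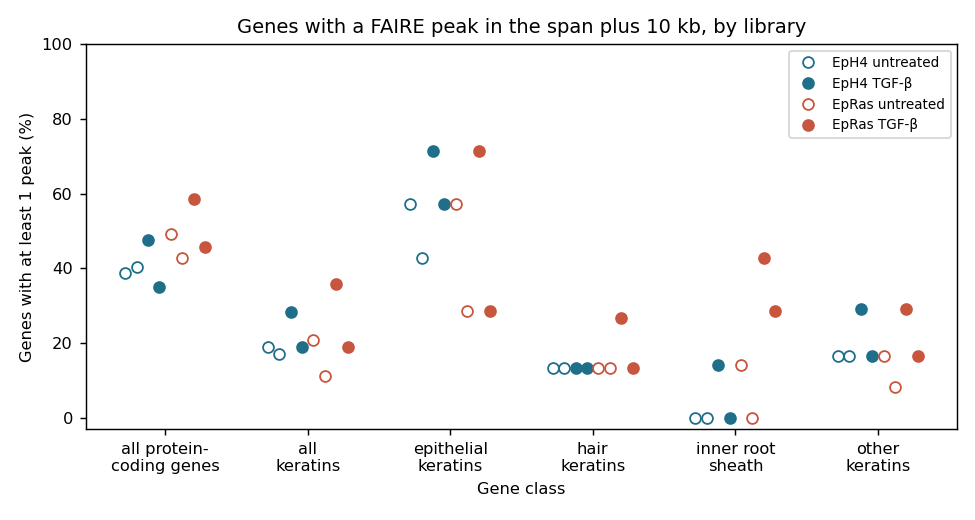
Percentage of genes with at least 1 peak in the span plus 10 kb (vertical axis) for all protein-coding genes, all keratins and the 4 keratin classes (horizontal axis), 1 point per library, coloured by line and filled for TGF-β. Epithelial keratins reach 71.4% in 2 libraries, while hair keratins stay at 13.3% in 7 of 8.

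*Krt80*, a type II keratin of simple and stratified epithelia, had sites at its start, in an intron and farther upstream. Its locus held 1 and 2 peaks in untreated EpH4, 2 and 1 in EpH4 with TGF-β, 1 and 0 in untreated EpRas, and 2 and 1 in EpRas with TGF-β. The start region, chr15:101370401-101370799, was called in 5 libraries. An intronic region, chr15:101353068-101353509, was called in 3 EpH4 libraries and no EpRas library. Farther upstream, outside the locus as defined, chr15:101381729-101382150 and chr15:101388219-101388571 were called in all 8 libraries, 11.8 and 18.2 kb from the start.

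The type II cluster (chr15:101337444-102042027) was open at both ends and without peaks in the middle. Between chr15:101473299 and chr15:101973767, over 500 kb, none of the 8 libraries had a peak, and 19 of the 26 keratin genes of the cluster lay at least partly in this stretch, from *Krt86* to *Krt78* with *Krt5* among them. In this stretch 91.1% of the 36-base windows occur once in the genome, beside 87.8% on chromosome 15. Stretches of at least this length without a peak made up 2.28% of the 37207 gaps between regions but covered 33.6% of the genome. On chromosome 15 they made up 20 of 2085 gaps. How many of them hold as many genes was not counted. The flanking region on the *Krt8* side, chr15:101973768-101974036, was called in all 8 libraries.

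The type I cluster (chr11:99222761-100279871) had its longest stretch without peaks, 221 kb, among *Krtap* genes and outside all keratin genes. A stretch of 141 kb held *Krt222*, *Krt24*, *Krt25* and *Krt26* at least in part. Of the 55 regions in the clusters, 28 lay in the type I cluster and 27 in the type II cluster, with 4 in each called in all 8 libraries. That is 14.5% of the 55 regions, beside 11.4% of all 37230 regions.

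**Figure D3:**
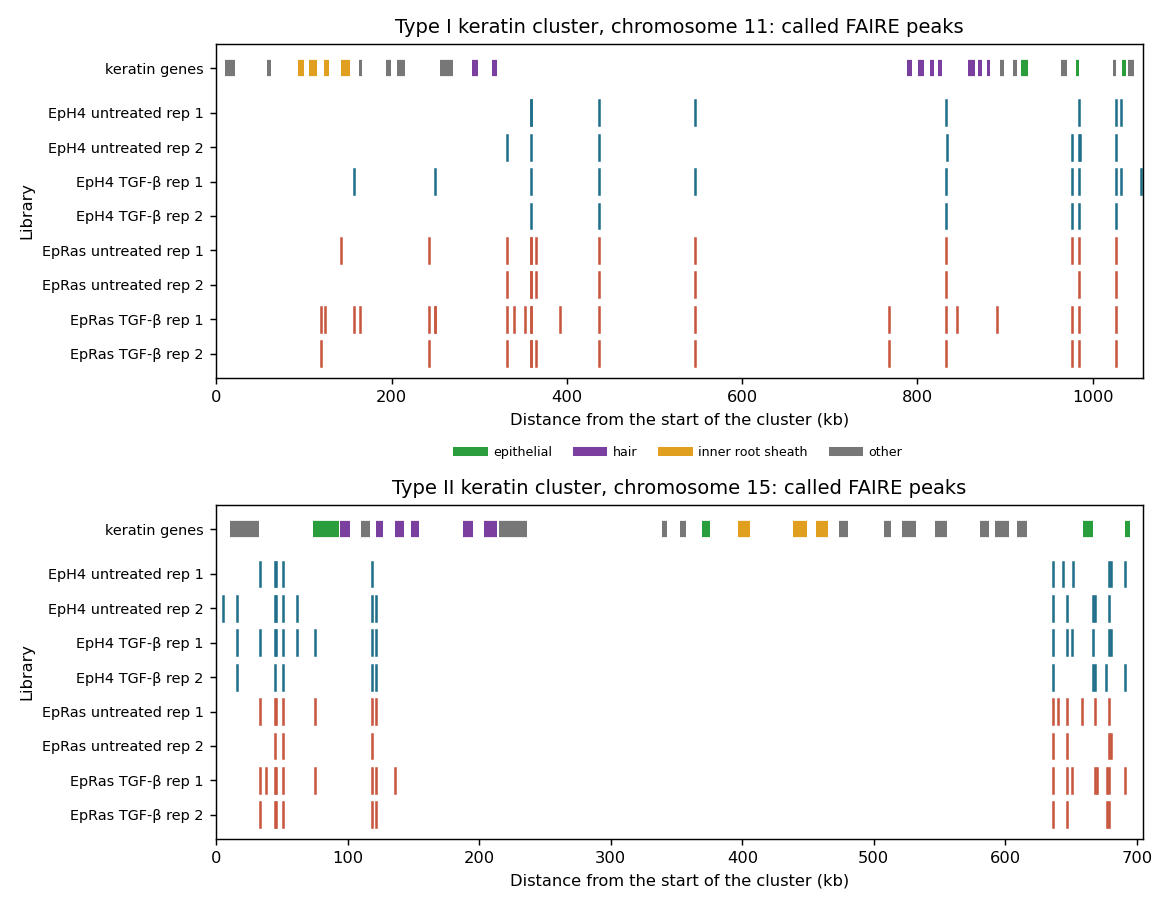
Called peaks along the type I (top) and type II (bottom) cluster, as distance in kb from the start of each cluster (horizontal axis), with 1 row per library and keratin genes as coloured blocks by class. The 500 kb of the type II cluster without a tick in any row hold 19 keratin genes at least in part.

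Peak density was higher in the type II than in the type I cluster in each of the 8 libraries. In the type I cluster it was 7.57 and 7.57 peaks per Mb in untreated EpH4, 10.4 and 5.68 in EpH4 with TGF-β, 11.4 and 8.51 in untreated EpRas, and 20.8 and 12.3 in EpRas with TGF-β. In the type II cluster it was 15.6 and 18.5 in untreated EpH4, 21.3 and 14.2 in EpH4 with TGF-β, 18.5 and 9.93 in untreated EpRas, and 24.1 and 14.2 in EpRas with TGF-β. The type II cluster stood above the density of its chromosome in all 8 libraries, and the type I cluster below that of chromosome 11 in 6. Both stood above the density of the genome (3.97 to 10.0 peaks per Mb) in all 8. The difference between the clusters was 6.51 ± 3.82 peaks per Mb (SD, n = 8). It was 9.58 ± 1.51 in EpH4 and 3.43 ± 2.57 in EpRas (n = 4 each), without overlap of the lines, and this split has no test. For each cluster alone the lines overlapped. The type II density was 17.4 ± 3.15 in EpH4 and 16.7 ± 6.06 in EpRas, and the type I density 7.80 ± 1.95 and 13.2 ± 5.30. Among peaks above the median score the difference over the 8 libraries was 0.0606.

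**Figure D4:**
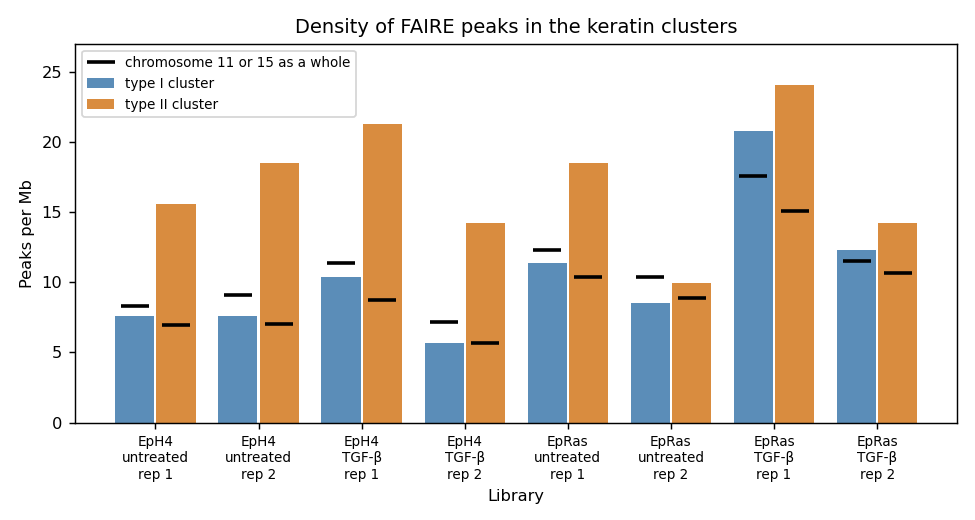
Peaks per Mb (vertical axis, from 0) in the type I and type II cluster (bars) in each library (horizontal axis), with the density of chromosome 11 or 15 as a black line. Each type II bar is taller than its type I neighbour and than its chromosome line.

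The comparison of the lines asked how Ras transformation bears on these loci. Keratin loci held 9 and 11 peaks in untreated EpH4, 16 and 11 in EpH4 with TGF-β, 11 and 4 in untreated EpRas, and 21 and 8 in EpRas with TGF-β. The EpH4 mean was 11.8 (SD 2.99, n = 4), and EpRas differed from it by -0.750 peaks with an SD of 7.26 (n = 4), less than the spread of either line. Per 10000 peaks of the library the means were 8.68 ± 1.22 and 5.43 ± 2.07, and the lines still overlapped. For the loci on chromosome 15 alone the lines overlapped in numbers of peaks. The counts were 5, 6, 8 and 7 in EpH4 and 6, 1, 10 and 3 in EpRas. The lines were apart only as shares. Per 10000 peaks the values were 4.01, 4.58, 4.46 and 6.47 in EpH4 and 3.49, 0.725, 3.66 and 1.78 in EpRas. As a share of the peaks on that chromosome the means were 0.894% ± 0.207 and 0.393% ± 0.246. Each EpRas library had more peaks on chromosome 15 than any EpH4 library. For the loci on chromosome 11 the lines overlapped, at 3.80 ± 0.516 per 10000 in EpH4 and 3.02 ± 0.760 in EpRas. These splits by chromosome were chosen after the values were seen and have no test. How many other loci separate in this way was not counted, and the splits were not repeated at equal peak numbers. For 0 of the 53 keratin genes were the 4 EpRas libraries apart from the 4 EpH4 libraries, beside 2.72% of all genes (exact permutation test, two-sided, in which separated groups give the smallest p of 0.0286). The lowest unadjusted exact p among keratin genes was 0.371, and no gene of the genome passed after adjustment, with a lowest Benjamini-Hochberg adjusted p of 1.00. With counts of 0 to 3 peaks per gene, a small difference was not detectable.

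No region in keratin loci separated the lines, that is, had a call in each of the 4 libraries of a line and no call in the other line (0 of 33, beside 2.73% of all regions). The nearest were the *Krt8* start region and the *Krt80* intronic region described above, each called in 3 EpH4 libraries. Both lacked a call in EpH4 untreated replicate 1, and without that library 2 regions separated the lines.

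As shares of the peak lists, the whole clusters, which also hold peaks outside keratin loci, differed between the lines in opposite directions. In numbers of peaks the lines overlapped for both clusters. The type II cluster held 12.2 ± 2.22 peaks in EpH4 and 11.8 ± 4.27 in EpRas, and the type I cluster 8.25 ± 2.06 and 14.0 ± 5.60. Of every 10000 peaks, the type II cluster held 9.09 ± 0.663 in EpH4 and 6.20 ± 1.03 in EpRas, and the type I cluster 6.05 ± 0.366 in EpH4 and 7.32 ± 0.692 in EpRas, without overlap of the lines in either. The higher type I share in EpRas came from peaks outside keratin loci, 4, 3, 3 and 2 in the EpH4 libraries and 7, 6, 11 and 8 in EpRas. In the type II cluster such peaks overlapped between the lines, at 3 to 7 in EpH4 and 6 to 7 in EpRas. This comparison was added after the values were seen and has no test. Of stretches of the same length across the genome, 8.14% had shares lower in EpRas without overlap (17.8% of those with at least 50 peaks), as the type II cluster did, and 12.2% had shares higher in EpRas without overlap (12.6%), as the type I cluster did. Among peaks above the median score the lines overlapped for both clusters, with a type II difference of -0.103 per 10000, and with equal peak numbers they overlapped for the type I cluster. Chromosome 15 as a whole took 5.48% ± 0.307 of the peaks in EpH4 and 6.33% ± 0.428 in EpRas, with overlap.

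**Figure D5:**
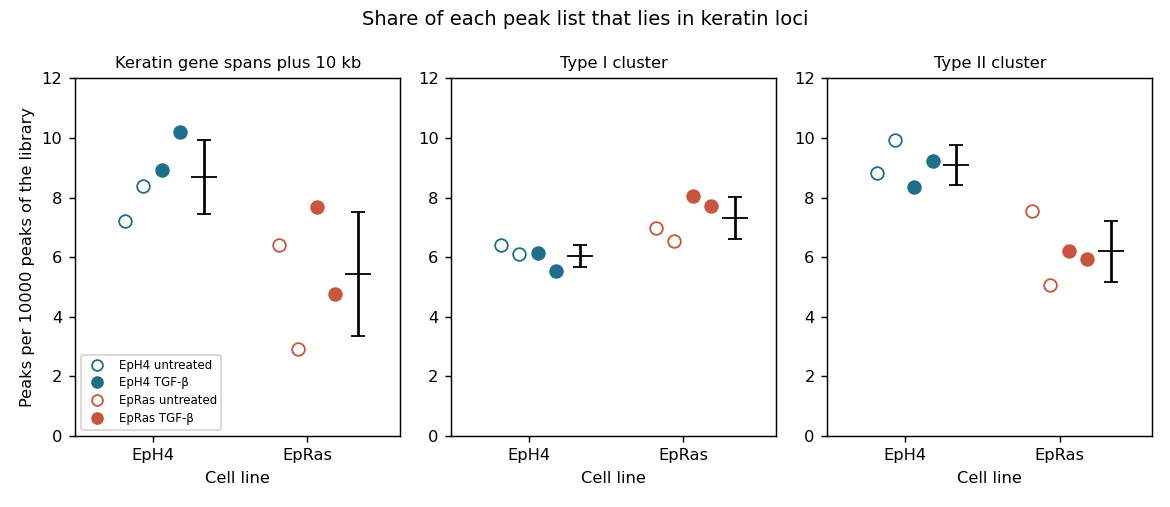
Peaks per 10000 peaks of the library (vertical axis) in all keratin loci, the type I cluster and the type II cluster, by line (horizontal axis), 1 point per library, with the mean and SD of 4 libraries in black. The lines overlap in the first panel, EpRas is higher in the second and lower in the third.

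The comparison of treatments asked what 8 days of TGF-β did. Keratin loci held 14.0 ± 5.72 peaks with TGF-β and 8.75 ± 3.30 without (SD, n = 4 each), a difference of 5.25, and the groups overlapped. Without EpRas TGF-β replicate 1, the longest list, it was 2.92, with equal peak numbers 3.00 and in gene spans alone 1.75. Within EpH4 the means were 13.5 and 10.0 and within EpRas 14.5 and 7.50, with 2 libraries a group, for which an exact permutation test cannot go below 0.333. For 0 of the 53 genes were treated and untreated libraries apart, beside 0.260% of all genes, and the lowest unadjusted exact permutation p was 0.286, for *Krt81*. No region in keratin loci separated the treatments (0 of 33, beside 0.338% of all regions).

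Within EpRas, 1 of 33 regions was called in both TGF-β libraries and in neither untreated one (3.03%, beside 7.64% of all regions). It lay between the inner root sheath genes *Krt26* and *Krt27* at chr11:99341850-99342136 with 2 AP1 matches, and no EpH4 library called it. The region was singled out after its values were seen. Within EpH4, 0 of 33 regions were gained, beside 3.27% of all regions. Of the 33 regions, 15 were called in 1 library (45.5%, beside 31.6% of all), and 7 of those 15 came from EpRas TGF-β replicate 1.

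Genes that work with keratins were read in the same way. All 10 genes of the linkers and desmosome plaque had a peak, 5 of them in every library, beside 65.5% and 22.9% of all genes, and 0 had separated lines, beside 2.72%. Most of these 10 genes have spans above the median of 17.4 kb of all genes, so their loci are longer. The share among genes of like length was not counted. Of 14 other intermediate filament genes 9 had a peak, near the share of all genes, with *Vim*, the mesenchymal vimentin gene, at 2 peaks in EpRas TGF-β replicate 1 and 0 elsewhere, and 0 had separated lines. Of 11 genes for regulators of keratin genes, *Trp63* alone separated the lines. *Trp63*, the gene of the basal cell factor p63, held 4, 3, 7 and 4 peaks in the EpH4 libraries and 0, 1, 1 and 1 in EpRas (exact permutation p = 0.0286, adjusted p = 1.00 over all genes). Its EpRas counts were lower in each library than any EpH4 count, beside 0.378% of all genes lower in EpRas in that way. With the replicate block its exact permutation p was 0.0556, the smallest that block allows. Among peaks above the median score *Trp63* did not separate the lines. Whether calls on the whole of chromosome 16, where *Trp63* lies, were lower in EpRas was not tested. No gene of the 3 lists separated the treatments. The basal marker list held *Krt5*, *Krt14*, *Krt17*, *Trp63*, *Acta2* and *Oxtr*. It summed to 7 to 12 peaks in EpH4 and 3 to 4 in EpRas, and without *Trp63* to 3 to 5 and 2 to 4, which overlap. The sums of the luminal list, 2 to 5 in EpH4 and 1 to 7 in EpRas, and of the epithelial list, 7 to 18 and 6 to 15, overlapped too.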

How the data were processed

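The authors sequenced FAIRE DNA on an Ion Proton, trimmed reads to 36 bases, mapped them to mm10 with Bowtie2 and called peaks in each library with MACS2 (2.0.9). The deposited lists, 1 per library and not pooled, gave the position of each peak and a score with no stated meaning, used only to rank or filter peaks. Read counts and depth were not part of the lists. Groups came from the sample labels. Nothing shows how independent the replicate cultures were beyond the study's term biological replicates.

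Of 129466 peaks, 18 lay outside chromosomes 1 to 19, X and Y. Genes were those of GENCODE vM21 (basic), and sequence was GRCm38.p6. A peak counted for a locus at an overlap of at least 1 bp. Peaks per gene were compared over all 21951 genes by exact permutation (70 assignments) with Benjamini-Hochberg adjustment, in Python 3.11.15 with NumPy 2.4.6, and tested on simulated data. Merging gave 37230 regions. Members and lists were chosen with earlier results of these data known. Named were the 7 epithelial keratins, other keratins with a peak in at least 4 libraries or with separated groups, hair keratins with any peak, and listed partner genes with separated lines. Alternatives were equal peak numbers (10821 per library), peaks above the median score, flanks of 0 and 20 kb, peak midpoints, other denominators, promoter peaks and each library left out.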

Additional observations from a re-analysis of the deposited data

Results flagged for a closer look

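Of 104 groups of 4 libraries examined, 23 had 1 library far from the other 3 by Dixon's limit, which chance alone passes in about 1 group in 20. Most were counts of 0 to 3 peaks, where 1 library that differs from 3 equal ones always passes.

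EpH4 TGF-β replicate 1 had a peak at 15 keratin genes, above the other EpH4 libraries. EpRas TGF-β replicate 1 had a peak at 4 hair keratin genes, above both the other EpRas and the other treated libraries. The same library alone had 1 peak at *Krt36*, 1 at *Krt86* and, among EpRas libraries, 1 at *Krt18*, and had 3 at *Krt81*, the highest of the treated libraries. EpRas untreated replicate 2 was low within EpRas, with 0 peaks at *Krt9*, 1 at *Krt14* and 1 at *Krt88*. EpH4 untreated replicate 1 was low within EpH4, with 0 at *Krt9*, 1 at *Krt88* and 1 at *Krt81*, and was highest among untreated libraries with 2 peaks at *Krt16*, *Krt17* and *Krt18*. EpH4 TGF-β replicate 1 was highest among treated libraries with 2 at *Krt16* and *Krt17*, and alone in EpH4 with 1 at *Krt7*, where EpRas untreated replicate 1 was alone among untreated libraries with 1. EpRas TGF-β replicate 2 was the only treated library with 0 at *Krt18*.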

How the results depend on the processing

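Of 124 values of the comparisons under alternatives, 111 were counted as unchanged. They stayed within the SD, within 1.5 times for counts, or kept the direction for other denominators. The SD was pooled over groups of 4 libraries that mix treatments or lines, or taken over all 8 libraries. It is therefore wider in meaning than a spread between replicates. The cause of the other changes was not tested. For peaks above the median score, the type II minus type I density was 0.0606 per Mb, the epithelial minus hair gap 17.5 percentage points, and 0 partner genes separated the lines. The gap was 21.4 points without a flank, and 2 partner genes separated the lines at equal peak numbers. With 1 library left out, partner genes that separated the lines numbered 1 to 3, and keratin-locus regions that separated the lines 0 to 2. The line difference in keratin-locus peaks (-0.750) ranged from -4.08 to 1.58 with 1 library left out, and was -4.00 at equal peak numbers, 2.00 above the median score and 2.50 with 20 kb flanks. The TGF-β difference stayed above 0, at 2.92 to 7.25 with 1 library left out, 3.00 at equal peak numbers and 1.75 without a flank. Of 390 values for single genes, 21 were counted as moved by that SD. Deviations of libraries with the same replicate number were not correlated between groups (-0.0545 to 0.00216), which does not exclude a batch shared by them. In each group replicate 1 had a peak at more keratin genes than replicate 2. The counts were 10 and 9 in untreated EpH4 and 15 and 10 in EpH4 with TGF-β. In EpRas they were 11 and 6 untreated and 19 and 10 with TGF-β. With the replicate block the smallest possible exact permutation p is 0.0556, so no gene could pass 0.05 in either comparison. The counts of 0 keratin genes under this block were fixed in advance and carry no information. They are among the 111 values counted as unchanged.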
